A study of Mus musculus with 6 samples.

Results

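The genes described here encode the enzymes that cut the extracellular matrix of the vessel wall and the inhibitors that hold them back: the matrix metalloproteases (Mmp), the ADAMTS proteases (Adamts), the ADAMTS-like proteins (Adamtsl) and the tissue inhibitors of metalloproteases (Timp). They were all protein-coding genes of the deposited table whose symbol is one of these 4 names followed by a number, an a or b suffix being allowed for Mmp. This gave 50 genes of 55487 in the table, namely 22 Mmp, 19 Adamts, 5 Adamtsl and 4 Timp genes. The rule tests those with a summed count of at least 60 over the 6 libraries, and 35 of the 50 reached it. Just inside that limit were Mmp24 with 60 counts and Mmp12 with 72, and just outside it Mmp13 with 55 and Mmp27 with 52. Mmp1a matched by name and was left out because the table types it as a polymorphic pseudogene.

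The RNA came from whole aorta of mice, in 3 libraries with Ogt knocked out specifically in smooth muscle cells (SM22-∆Ogt in the titles) and 3 libraries of controls with a floxed (LoxP) Ogt (SM22-Ctrl). Ogt encodes O-GlcNAc transferase, which attaches N-acetylglucosamine to nuclear and cytoplasmic proteins, and the study set out to find genes that depend on it. SM22 is another name for transgelin, a smooth muscle protein whose promoter is commonly used to drive Cre recombinase; the sources used here give neither the driver itself nor the age and sex of the mice. The deletion was aimed at 1 lineage while the RNA was that of the whole vessel, so fewer cells of a type and less RNA per cell cannot be told apart in any value given here.

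Metalloproteases of both families hold a zinc ion in the active site and are made as inactive precursors that other proteases, furin among them, must cut. Mmp enzymes digest collagens, gelatin, elastin and many cell surface proteins, and several Adamts enzymes cut the large proteoglycans aggrecan and versican or trim procollagen. The 4 TIMPs bind the active enzymes and block them, and TIMP3 in addition binds to the matrix and inhibits several ADAM and ADAMTS enzymes. In the aorta this system is known for the breakdown of elastic lamellae in aneurysm and for the migration of smooth muscle cells after injury.

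Total counts were 11845644 to 18218385 in knockout libraries and 3038782 to 13738958 in control libraries, the lowest in control replicate 2. That library stood apart: mitochondrial ribosomal RNA took 10.2% of its counts and protein-coding genes 77.2%, against 0.491% to 0.823% and 93.2% to 94.2% in the other 5. A single read there was worth 0.372 CPM (read counts scaled to the library total), against 0.0545 to 0.085 in the others, so low values in that library rest on few reads. The 50 genes together took 0.43% to 0.445% of counts in knockout libraries and 0.403% to 0.549% in control libraries. Smooth muscle markers were abundant in every library, with Acta2 at 10425 to 12676 CPM in knockout and 10684 to 13374 CPM in control libraries. The 7 of them summed to 23814 to 28229 CPM in knockout and 28659 to 34719 CPM in control libraries, and 1, the transgelin gene Tagln, fell to 2524 CPM on average in knockout, against 5555 CPM in control libraries (edgeR adjusted p = 0.0339). Without Tagln the other 6 summed to 21472 to 25363 CPM in knockout and 23635 to 28662 CPM in control libraries, which overlap. Myh11 had 6830 to 8114 CPM in knockout and 8156 to 10181 CPM in control libraries. Smtn had 1423 to 1722 CPM in knockout and 1851 to 2221 CPM in control libraries. Both lay lower in the knockout without overlap (log2 fold changes -0.32 and -0.36, edgeR adjusted p = 0.269 and 0.188), as 31.8% of all tested genes did not overlap. Of the 7, Des alone had a positive log2 fold change (0.61, edgeR adjusted p = 0.127). It had 295 to 334 CPM in knockout and 154 to 261 CPM in control libraries, without overlap. DESeq2 and limma each called 1 of the 7 markers higher and 1 lower. The part of these differences in the values of the family was not tested. Ogt had 93.3, 73.4 and 70.8 CPM in knockout replicates 1 to 3 and 177.2, 184.0 and 149.9 CPM in control replicates 1 to 3. It fell by 1.104 ± 0.15 (SE) on the log2 scale (adjusted p = 0.0222, quasi-likelihood test of edgeR with Benjamini-Hochberg adjustment), and that call was lost without control replicate 1 or any 1 knockout library.

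Of the 35 tested genes 1 passed the test, the inhibitor Timp4, which was higher in the knockout, and 0 were lower. Across all 15977 tested genes edgeR called 293 higher (1.83%) and 242 lower (1.51%), and 3.35% in either direction. At an unadjusted p under 0.05 there were 10 of the 35 (28.6%), 5 higher and 5 lower, against 22.9% of all tested genes. In 13 of the 35 (37.1%) the knockout and control libraries did not overlap, 5 with the knockout above and 8 with it below, against 31.8% of all tested genes. DESeq2 called Timp4 higher and 1 gene lower (Timp3), and limma with sample weights called Timp4 higher and 2 lower (Timp3 and Adamts8). These tools called 11.1% and 12.2% of all genes they tested. Log2 fold changes, given throughout as knockout minus control, were positive for 17 members and negative for 18, with a median of -0.01, the same as the -0.01 of all tested genes. These shares were close to those of all tested genes, and nothing is read from them about the family as a whole.

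**Figure D1:**
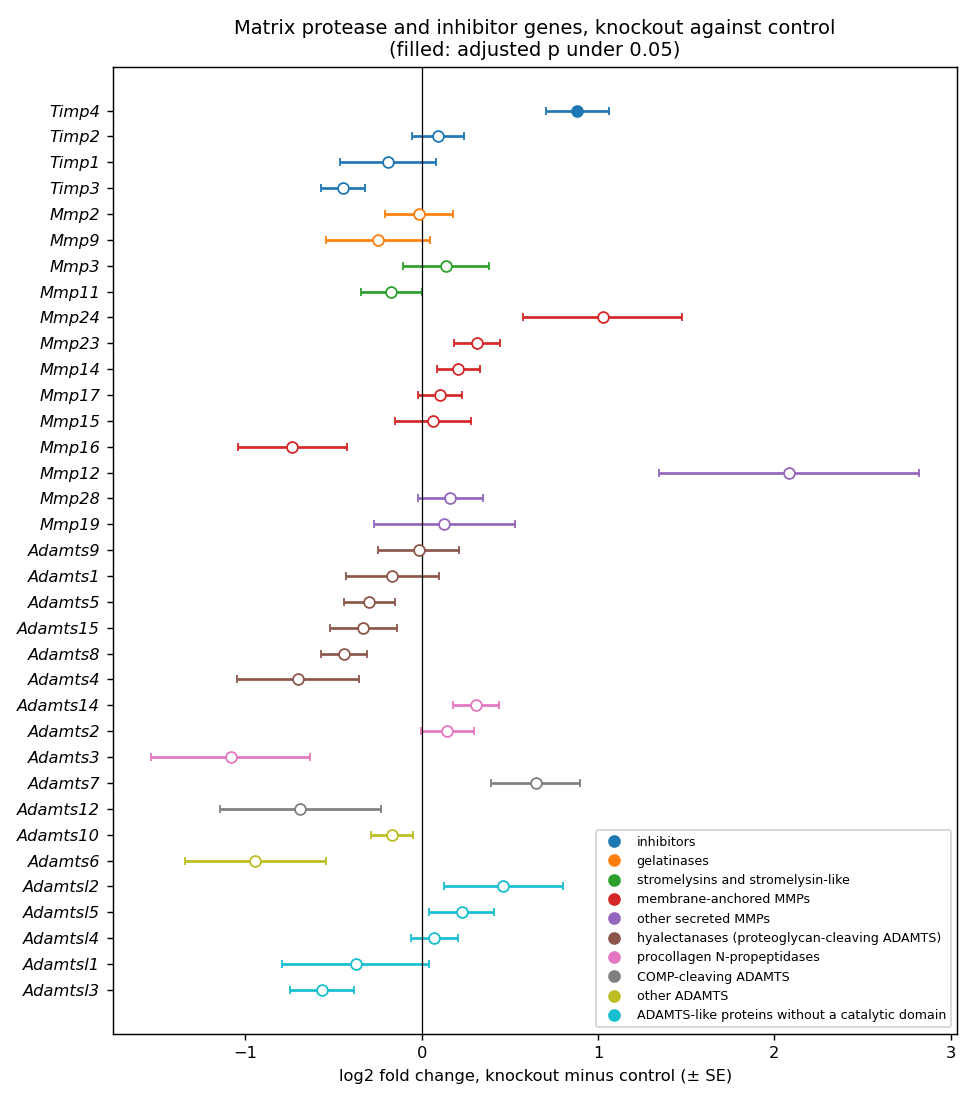
Log2 fold change of each of the 35 tested genes, knockout minus control, on the horizontal axis, with the standard error as bars and colours for the role groups; filled points passed the test. Timp4 at 0.88 is the filled point, and the remaining 34 are open, from -1.08 for Adamts3 to 2.08 for Mmp12.

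Compared per gene length with the FPKM values of the authors (fragments scaled to gene length and library total), the inhibitors Timp2 and Timp3 had the highest levels of the family. Timp2 averaged 227.1 ± 9.11 FPKM in knockout and 216.4 ± 53.4 FPKM in control libraries (SD, n = 3 each). Timp3 averaged 112.3 ± 4.01 FPKM in knockout and 154.5 ± 26.5 FPKM in control libraries. The most abundant proteases were Adamts1, Mmp3 and Mmp23, with means over all 6 libraries of 57.5, 45.8 and 44.4 FPKM. They were followed by Adamts2 at 31.3, Mmp17 at 25.4, Mmp2 at 23.2, Adamts10 at 21.8 and the ADAMTS-like gene Adamtsl5 at 20.3 FPKM. From Adamts1 to Adamtsl5 neighbouring genes in this order had overlapping ranges over the 6 libraries, while Timp3 lay above Adamts1 without overlap. Timp4 and Timp1 lay in the middle of the order, at 8.22 and 8.13 FPKM, below many of the proteases. Gelatinase B (Mmp9), at 0.964 FPKM, and the aggrecanase Adamts4, at 0.153 FPKM, were near the low end of the tested genes.

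**Figure D2:**
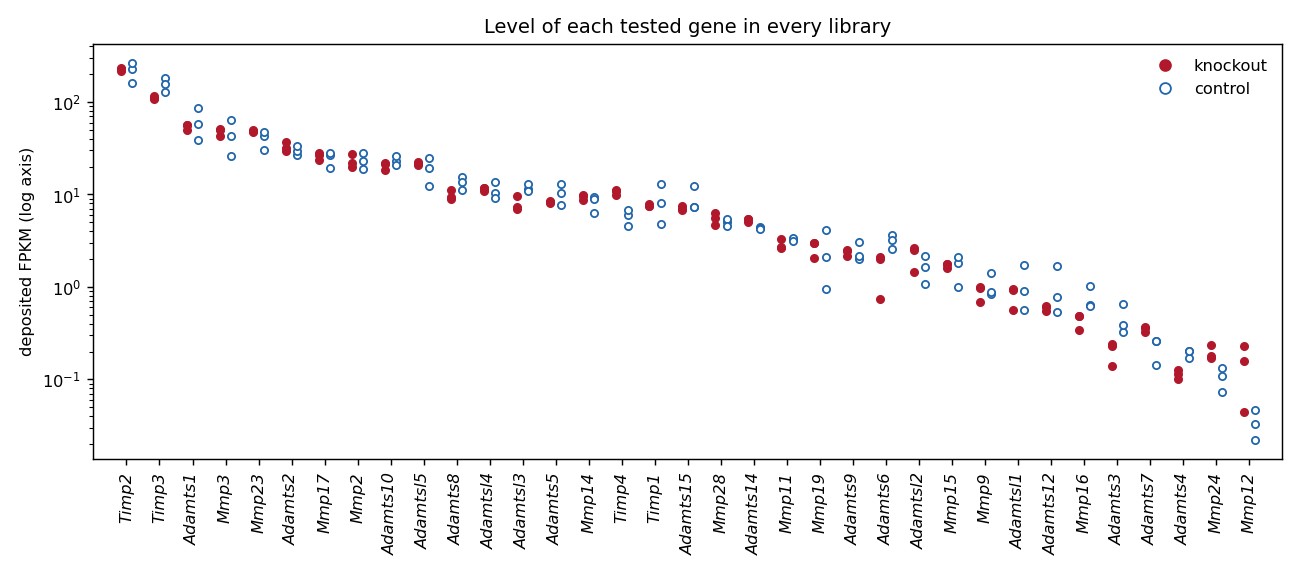
Deposited FPKM of the 35 tested genes on a log axis, ordered by their mean over the 6 libraries; filled points are the 3 knockout libraries and open points the 3 control libraries. Timp2 and Timp3 stand above every protease on average, and the control points spread more widely than the knockout points for many genes.

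Timp4 encodes the fourth of the inhibitors, known for its expression in heart, vessel and adipose tissue (GRCm38 chromosome 6, 115241892 to 115252205, minus strand). It had 70.3, 61.8 and 67.3 CPM in knockout replicates 1 to 3 and 26.8, 42.1 and 40.2 CPM in control replicates 1 to 3. All knockout libraries lay above all control libraries. The means were 66.5 ± 4.31 CPM in knockout and 36.4 ± 8.32 CPM in control libraries (SD, n = 3 each), a ratio of 1.83. The log2 fold change was 0.88 ± 0.18 with an adjusted p of 0.0485 by edgeR, just inside the threshold of 0.05. The call was kept without control replicate 2 (log2 fold change 0.99, edgeR adjusted p = 0.0389). Leaving out control replicate 1 ended the call (0.69, edgeR adjusted p = 0.11), as did leaving out control replicate 3 (0.98, edgeR adjusted p = 0.0637). The call also ended without knockout replicate 1 (0.83, edgeR adjusted p = 0.201), knockout replicate 2 (0.93, edgeR adjusted p = 0.165) or knockout replicate 3 (0.87, edgeR adjusted p = 0.11). Scaling with median-of-ratios factors in place of the trimmed mean gave an edgeR adjusted p of 0.0501.

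Timp3 was the inhibitor with the next smallest p (chromosome 10, 86300372 to 86349506, plus strand). It had 992, 1067 and 996 CPM in knockout replicates 1 to 3 and 1534, 1301 and 1324 CPM in control replicates 1 to 3. The groups did not overlap, and the knockout mean was 73.4% of the control mean. The log2 fold change of -0.45 ± 0.13 did not pass edgeR's test (adjusted p = 0.097), while DESeq2 gave an adjusted p of 0.00592 and limma 0.0322. Timp2, which also takes part in the activation of Mmp2 by Mmp14, had 969, 900 and 931 CPM in knockout replicates 1 to 3 and 868, 737 and 1018 CPM in control replicates 1 to 3. Timp1, an inhibitor induced by injury and cytokines, had 10.97, 10.5 and 10.2 CPM in knockout and 10.6, 7.45 and 17 CPM in control replicates 1 to 3. For both genes the knockout libraries lay inside the control range, and neither passed the test (log2 fold changes 0.09 ± 0.15 and -0.19 ± 0.27, edgeR adjusted p = 0.745 and 0.714).

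**Figure D3:**
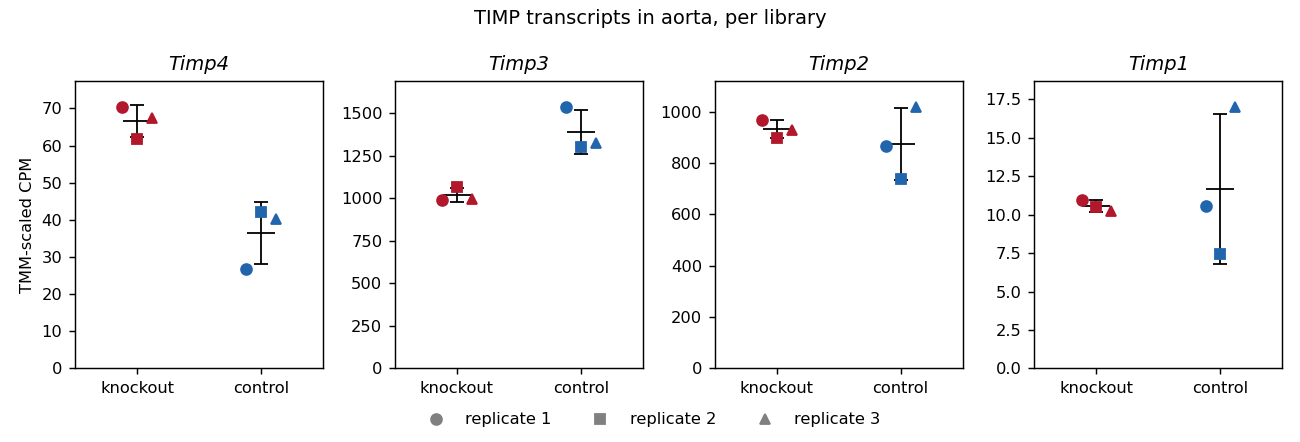
TMM-scaled CPM of the 4 TIMP genes in each library, knockout on the left and control on the right of each panel, with the group mean and SD as bars and a marker shape for each replicate number. Timp4 lies at 61.8 to 70.3 CPM in knockout and 26.8 to 42.1 CPM in control libraries, and the groups of Timp3 also lie apart, in the opposite order.

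The make-up of the inhibitor transcripts was also read within each library, as each gene's share of their summed FPKM. Timp4 made up 3.09%, 2.79% and 3.04% of the summed TIMP FPKM in knockout replicates 1 to 3 and 1.09%, 2.01% and 1.56% in control replicates 1 to 3. Timp3 made up 30.0% to 33.2% in knockout and 35.4% to 43.1% in control libraries, and Timp2 61.8% to 64.7% in knockout and 53.6% to 60.1% in control libraries. None of the 3 shares overlapped between groups, though the shares of 1 library add up to a whole and so are not separate results. The summed TIMP FPKM was 2.03, 2.11 and 2.16 times the summed Mmp FPKM in knockout replicates 1 to 3 and 2.70, 2.53 and 2.30 times in control replicates 1 to 3. These ratios are descriptions without a test, and transcripts say nothing directly about the balance of active protein.

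The 100 bases before the RefSeq start site of each inhibitor gene are shown because Timp4 and Timp3 are the members that stood out. They come from RefSeq (GRCm38.p6), read 5′ to 3′ on the gene's strand, and capitals mark GGGCGG or its reverse complement CCGCCC, the core of the GC box that Sp1-type factors bind. Timp4 is chr6:115252206-115252305 (minus strand), Timp3 is chr10:86300312-86300411 (plus strand), Timp2 is chr11:118355412-118355511 (minus strand) and Timp1 is chrX:20870066-20870165 (plus strand).
Timp4: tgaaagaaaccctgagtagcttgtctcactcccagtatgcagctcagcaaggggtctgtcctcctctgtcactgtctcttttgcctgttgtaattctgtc
Timp3: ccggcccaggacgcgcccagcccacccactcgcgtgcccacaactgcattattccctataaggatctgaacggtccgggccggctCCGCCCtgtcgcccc
Timp2: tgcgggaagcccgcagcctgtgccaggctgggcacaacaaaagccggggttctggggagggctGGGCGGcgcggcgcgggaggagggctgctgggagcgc
Timp1: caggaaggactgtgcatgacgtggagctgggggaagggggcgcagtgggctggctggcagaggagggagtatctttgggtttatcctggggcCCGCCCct
The stretches of Timp1, Timp2 and Timp3 each hold 1 match, and that of Timp4 holds 0. Over all 32851 RefSeq promoter windows, 24.7% have a match in these 100 bases. The GC content was 49% for Timp4, against 69% for Timp3, 75% for Timp2 and 65% for Timp1.

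Markers of other cell types that differed between the groups stand beside the Timp4 result, since heart and fat also express it. Of 5 tested cardiac muscle markers Actc1 was higher in the knockout, and the summed level of the list of 7 was 30.7 to 47.0 CPM in knockout and 14.5 to 26.2 CPM in control libraries, with the ventricular marker Myl2 at 1 count in all. Without Actc1 the sums overlapped, at 15.2 to 24.6 CPM in knockout and 13.4 to 21.1 CPM in control libraries, and Tnnt2 lay lower in the knockout without overlap (log2 fold change -0.50, edgeR adjusted p = 0.16). Of 4 tested skeletal muscle markers Ckm was higher, and the summed list of 6 had 46.1 to 68.6 CPM in knockout and 5.59 to 12.3 CPM in control libraries. Without Ckm these sums were 3.70 to 7.57 CPM in knockout and 2.61 to 8.499 CPM in control libraries, again overlapping, with Acta1 at a log2 fold change of -1.14 and Tnnt3 at 0.01. Of 4 tested brown adipocyte markers Ucp1 was lower, and the summed list of 5 had 58.9 to 68.5 CPM in knockout and 101.1 to 159.8 CPM in control libraries, or 52.2 to 60.2 CPM in knockout and 64.6 to 120.7 CPM in control libraries without Ucp1. DESeq2 and limma each called 2 of the brown adipocyte markers lower. Of 6 general adipocyte markers edgeR called 0, DESeq2 0 and limma 1, which was higher. The 2 with an unadjusted p under 0.05 by edgeR went in opposite directions, both without overlap. Lep was higher (log2 fold change 1.55, edgeR adjusted p = 0.077) and Plin1 lower (-0.46, edgeR adjusted p = 0.168). The 6 summed to 856 to 1160 CPM in knockout and 921 to 1321 CPM in control libraries. Of 3 tested chondrocyte markers Acan was higher, with Sox9 at a log2 fold change of -0.25 and Comp at -0.12. The summed chondrocyte list of 6 had 122.3 to 150.7 CPM in knockout and 83.4 to 114.6 CPM in control libraries. Without Acan its sums overlapped, at 60.8 to 78.7 CPM in knockout and 62.2 to 95.7 CPM in control libraries. The part of these cell types in the Timp4 difference was not tested.

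The gelatinases, which digest denatured collagen and basement membrane, overlapped between the groups. Mmp2 had 129.2, 94.2 and 101.8 CPM in knockout replicates 1 to 3 and 83.6, 122.9 and 122.4 CPM in control replicates 1 to 3. Mmp9, abundant in neutrophils and macrophages, had 2.67 to 3.997 CPM in knockout and 3.27 to 5.29 CPM in control libraries. The log2 fold changes were -0.01 ± 0.19 for Mmp2 and -0.25 ± 0.29 for Mmp9, with edgeR adjusted p-values of 0.978 and 0.652. Mmp8 and Mmp25, both typical of neutrophils, had 4 and 6 counts over all 6 libraries, and of 7 neutrophil markers Ly6g had 0, while Csf3r had 144, S100a9 47 and S100a8 37. The summed neutrophil markers overlapped, at 1.96 to 5.35 CPM in knockout and 1.99 to 6.70 CPM in control libraries.

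The membrane-anchored enzymes act at the cell surface, and 6 of the 7 were tested. By edgeR 0 were called, 2 had an unadjusted p under 0.05, and DESeq2 and limma called 0. Mmp23, whose protein is released from the membrane by a proprotein convertase, had 173.9, 172.6 and 176.9 CPM in knockout replicates 1 to 3 and 142.6, 120.3 and 157.6 CPM in control replicates 1 to 3. The groups did not overlap, and the log2 fold change of 0.31 ± 0.13 had an edgeR adjusted p of 0.205. Mmp14, the collagenase that activates Mmp2, had 70.6 to 80.3 CPM in knockout and 58.1 to 71.3 CPM in control libraries, so the groups overlapped (0.21 ± 0.12, edgeR adjusted p = 0.356). Mmp17, a glycosylphosphatidylinositol-anchored enzyme of vascular smooth muscle, had 165.1 to 190.9 CPM in knockout and 151.2 to 179.9 CPM in control libraries (0.10 ± 0.12, edgeR adjusted p = 0.656). Mmp16 had 4.08, 5.70 and 5.66 CPM in knockout replicates 1 to 3 and 7.001, 13.4 and 6.76 CPM in control replicates 1 to 3, the high value being that of the shallow control replicate 2 (-0.73 ± 0.31, edgeR adjusted p = 0.212). Without that library the log2 fold change of Mmp16 was -0.40. Mmp24 and Mmp15 were the other 2 tested, at means of 0.966 and 9.65 CPM in knockout and 0.532 and 8.95 CPM in control libraries.

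The remaining secreted metalloproteases included the stromelysin Mmp3, which degrades proteoglycans and activates other Mmp precursors. Mmp3 had 91.8, 90.4 and 76.2 CPM in knockout replicates 1 to 3 and 72.3, 52.5 and 107.9 CPM in control replicates 1 to 3 (log2 fold change 0.14 ± 0.24, edgeR adjusted p = 0.776). The knockout libraries lay inside the control range. Mmp11, Mmp19 and Mmp28 likewise overlapped between groups, with log2 fold changes of -0.17, 0.13 and 0.16.

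Mmp12, the macrophage elastase, had the largest fitted log2 fold change of the tested members on the fewest reads but those of Mmp24. It had 27, 27 and 8 counts in knockout replicates 1 to 3 and 3, 1 and 6 in control replicates 1 to 3, which is 2.30, 1.59 and 0.436 CPM in knockout and 0.206, 0.372 and 0.436 CPM in control libraries. Knockout replicate 3 was level with control replicate 3, and the other 2 knockout libraries lay above every control library. The log2 fold change of 2.08 ± 0.74 did not pass the test (edgeR adjusted p = 0.155). The 8 macrophage markers summed to 486, 525 and 426 CPM in knockout replicates 1 to 3 and 334, 205 and 629 CPM in control replicates 1 to 3, with overlapping groups. Of these markers 0 were called by edgeR, DESeq2 or limma, and 0 had an unadjusted p under 0.05 by edgeR. The part of macrophages in the Mmp12 values was not tested.

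Mmp13, the interstitial collagenase of rodents, stood at 30, 16 and 8 counts in knockout replicates 1 to 3 and 0, 1 and 0 counts in control replicates 1 to 3. It is named after its values were seen, and its 55 counts fall short of the limit for testing. Pooled, it had 1.15 CPM in knockout and 0.0322 CPM in control libraries, a ratio of 35.5 with an exact 95% interval of 6.11 to 1429 that covers counting error only. With no lower limit on counts it entered edgeR's test with an adjusted p of 0.0734.

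Mmp13, Mmp12 and Mmp3 belong to a cluster of 9 member genes within 427072 bases of chromosome 9 (7272514 to 7699585). The order along the chromosome is Mmp13, Mmp12, Mmp1b, Mmp3, Mmp10, Mmp8, Mmp27, Mmp20 and Mmp7. Of these, 4 had a count of 0 in every library (Mmp1b, Mmp10, Mmp20 and Mmp7), which allows a pooled level of up to 0.0636 CPM in knockout and 0.0967 CPM in control libraries at 3 counts per group. Mmp3 had 1079, 1538 and 1400 counts in knockout replicates 1 to 3 and 1054, 141 and 1486 counts in control replicates 1 to 3, and it was the 1 abundant gene of the cluster. Mmp27 had 5, 17 and 14 counts in knockout and 4, 0 and 12 counts in control replicates 1 to 3.

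**Figure D4:**
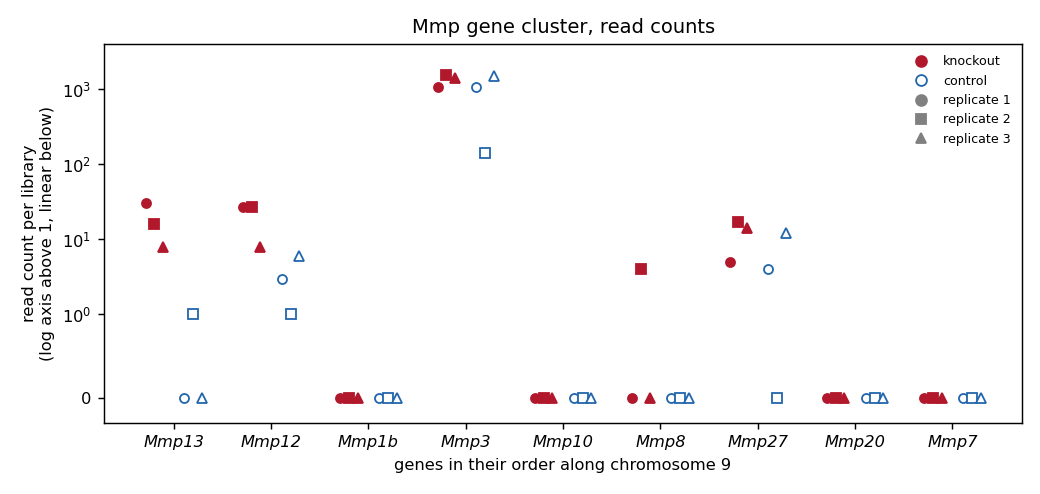
Read counts of the 9 member genes of the chromosome 9 cluster in each library, in their order along the chromosome, on an axis that is logarithmic above 1 and linear below; filled symbols are knockout and open symbols control libraries, and shapes give the replicate number. Mmp13 has 8 to 30 counts in knockout and 0 or 1 in control libraries, and Mmp3 has 1054 to 1538 counts in every library except control replicate 2, where it has 141.

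Many genes of this cluster are known as targets of AP-1, the FOS and JUN transcription factors, so the upstream stretches of the 6 members whose RefSeq window holds an AP-1 site are shown. The site searched was TGACTCA or its reverse complement TGAGTCA, on both strands, within 250 bases before to 50 bases after the start site. Capitals mark that site and TATAAA or its reverse complement TTTATA, the letters of the TATA element, at whatever position they lie. Each stretch is the 100 bases before the start site in GRCm38.p6, read 5′ to 3′ on the gene's strand. Mmp13 is chr9:7272414-7272513 (plus strand), Mmp12 is chr9:7347274-7347373 (plus strand) and Mmp3 is chr9:7445722-7445821 (plus strand). Mmp1b is chr9:7388027-7388126 (minus strand), Mmp10 is chr9:7502242-7502341 (plus strand) and Mmp7 is chr9:7691990-7692089 (plus strand).
Mmp13: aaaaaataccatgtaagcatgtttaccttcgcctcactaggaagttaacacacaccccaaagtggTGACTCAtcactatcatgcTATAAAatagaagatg
Mmp12: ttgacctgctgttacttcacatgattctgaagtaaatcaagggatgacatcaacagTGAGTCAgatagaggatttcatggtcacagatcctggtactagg
Mmp1b: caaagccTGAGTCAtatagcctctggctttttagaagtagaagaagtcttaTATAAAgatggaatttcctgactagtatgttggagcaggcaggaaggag
Mmp3: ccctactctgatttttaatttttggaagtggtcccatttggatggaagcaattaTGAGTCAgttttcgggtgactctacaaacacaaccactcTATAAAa
Mmp10: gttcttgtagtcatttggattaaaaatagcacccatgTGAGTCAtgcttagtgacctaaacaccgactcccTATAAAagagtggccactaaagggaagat
Mmp7: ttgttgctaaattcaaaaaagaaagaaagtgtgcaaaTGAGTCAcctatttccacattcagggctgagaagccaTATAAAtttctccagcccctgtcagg
Of the 35 members found in the RefSeq table, these 6 were the ones with the AP-1 site, in 15.8% of their 38 windows, against 5.2% of all 32851 windows. The sites began at -35 in Mmp13, -44 in Mmp12 (from the second of its 2 start sites), -93 in Mmp1b, -46 in Mmp3 and -63 in Mmp10 and Mmp7, counted from the start site. The TATA letters in these stretches began at -16 in Mmp13, -49 in Mmp1b, -7 in Mmp3, -29 in Mmp10 and -26 in Mmp7. The Mmp12 stretch has no match to them before the start, and one follows at position 5 after it. Over all 32851 windows, 5.56% have a match to the TATA letters in these 100 bases. The 6 genes that hold the AP-1 site ranged from 0 counts in every library (Mmp1b, Mmp10 and Mmp7) to the abundant Mmp3. A match in these letters does not show that a factor binds.

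The ADAMTS enzymes that cut aggrecan, versican and related proteoglycans had negative log2 fold changes in all 6 tested members, with a median of -0.31, and 0 passed edgeR's test. Adamts9 was at -0.02 ± 0.23, which gives no direction. The sign of Adamts1 turned with limma (0.0605) and without control replicate 3 (0.0832). Adamts9 and Adamts15 were not followed through the other settings. At an unadjusted p under 0.05 there was 1 (Adamts8), DESeq2 called 0 and limma 1. Over the whole Adamts family the log2 fold change was negative in 10 of 13 (76.9%), against 51.4% of all tested genes. Adamts8 (chromosome 9, 30942562 to 30963838) had 56.1, 53.3 and 66.9 CPM in knockout replicates 1 to 3 and 87.6, 75.6 and 76.1 CPM in control replicates 1 to 3. The groups did not overlap, and the log2 fold change was -0.44 ± 0.13 with an edgeR adjusted p of 0.107 and a limma adjusted p of 0.0288. Adamts5, the main aggrecanase of mouse cartilage, had 89.2, 93.5 and 87.1 CPM in knockout replicates 1 to 3 and 104.7, 94.2 and 131.6 CPM in control replicates 1 to 3. Its groups were apart by less than 1 CPM (-0.30 ± 0.14, edgeR adjusted p = 0.27), and without control replicate 3 the log2 fold change was -0.15.

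Adamts1, an inducible versican protease, was the most abundant of this group and the least even among controls. It had 319, 359 and 351 CPM in knockout replicates 1 to 3 and 232, 417 and 507 CPM in control replicates 1 to 3 (log2 fold change -0.17 ± 0.26, edgeR adjusted p = 0.746). Adamts4 had 0.817 to 1.02 CPM in knockout and 1.304 to 1.86 CPM in control libraries, from 88 counts in all (-0.70 ± 0.35, edgeR adjusted p = 0.277). Adamts15 had 72.5 to 79.9 CPM in knockout and 73.4 to 122.8 CPM in control libraries, and Adamts9 38.6 to 44.0 CPM in knockout and 33.4 to 61.1 CPM in control libraries, with overlapping groups in both.

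The procollagen N-propeptidases remove the amino-terminal propeptide that must be cleaved before collagen fibrils form. Adamts2, the main enzyme of this step in skin, averaged 317.0 ± 31.1 CPM in knockout and 286.8 ± 42.2 CPM in control libraries (SD, n = 3 each), with overlapping groups (log2 fold change 0.15 ± 0.15, edgeR adjusted p = 0.598). Adamts14 had 32.6, 32.9 and 29.6 CPM in knockout replicates 1 to 3 and 24.7, 29.1 and 23.8 CPM in control replicates 1 to 3, groups that did not overlap (0.31 ± 0.13, edgeR adjusted p = 0.215). Adamts3, which also processes the lymphatic growth factor VEGF-C, had 1.28, 1.35 and 0.762 CPM in knockout and 1.72, 4.10 and 2.03 CPM in control replicates 1 to 3 (-1.08 ± 0.45, edgeR adjusted p = 0.208). The high value of Adamts3 was again that of control replicate 2, from 11 counts.

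Adamts7 and Adamts12 cut cartilage oligomeric matrix protein, and ADAMTS7 lies at a human locus associated with coronary artery disease. Adamts7 had 4.34, 3.82 and 4.14 CPM in knockout replicates 1 to 3 and 2.81, 1.86 and 2.83 CPM in control replicates 1 to 3. The groups did not overlap, and the log2 fold change of 0.65 ± 0.25 had an edgeR adjusted p of 0.185. Adamts12 had 6.63 to 7.58 CPM in knockout libraries and 6.04, 22.7 and 8.72 CPM in control replicates 1 to 3, with a log2 fold change of -0.69 ± 0.46 (edgeR adjusted p = 0.41). The high value was that of control replicate 2, from 61 counts.

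The other Adamts genes included Adamts10, a protease that works with fibrillin microfibrils, and Adamts6, its closest relative. Adamts10 had 269.8 to 319.2 CPM in knockout and 316.4 to 353.6 CPM in control libraries, with overlapping groups (log2 fold change -0.17 ± 0.12). Adamts6 had 11.4, 31.1 and 31.7 CPM in knockout replicates 1 to 3 and 36.8, 62.6 and 45.9 CPM in control replicates 1 to 3 (-0.94 ± 0.40, edgeR adjusted p = 0.222). Knockout replicate 1 lay far below the other 2 knockout libraries, and the groups did not overlap. Without that library the log2 fold change of Adamts6 was -0.61.

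Adamts19, too rare to test, had 0 counts in the 3 knockout libraries and 5, 0 and 9 counts in control replicates 1 to 3. Its pooled level of 0.451 CPM in control libraries was 7.09 times a floor of 3 counts over the knockout group. That figure takes the control counts as exact, so it is not a lower bound. It is named after its values were seen, and with no lower limit on counts its edgeR adjusted p was 0.111. Adamts13, the von Willebrand factor protease, had 0 counts in every library. Adamts17, also too rare to test, had 12, 10 and 11 counts in knockout and 3, 0 and 6 counts in control replicates 1 to 3. Its pooled ratio was 2.41, with an exact 95% interval of 1.13 to 5.73 that covers counting error only. With no lower limit on counts the edgeR adjusted p of Adamts17 was 0.459. Adamts16, Adamts18 and Adamts20 had 6, 6 and 7 counts in knockout and 12, 7 and 2 counts in control libraries.

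The ADAMTS-like proteins share the matrix-binding modules of the ADAMTS enzymes but have no protease domain. All 5 were tested, 0 passed edgeR's test, 1 had an unadjusted p under 0.05 and DESeq2 and limma called 0. Adamtsl3 had 69.1, 72.3 and 93.8 CPM in knockout replicates 1 to 3 and 106.2, 143.4 and 100.2 CPM in control replicates 1 to 3. The groups did not overlap, and the log2 fold change was -0.57 ± 0.18 (edgeR adjusted p = 0.13). Adamtsl5 (0.23 ± 0.18), Adamtsl4 (0.07 ± 0.13), Adamtsl2 (0.46 ± 0.34) and Adamtsl1 (-0.37 ± 0.42) had overlapping groups. Adamtsl2 and Adamtsl4, known from human growth and lens disorders of the microfibril, were not distinguishable between the groups at this spread.

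Genes that act with the family were read from 3 lists. Across all tested genes 22.9% had an unadjusted p under 0.05, 31.8% did not overlap, and the median log2 fold change was -0.01. By edgeR 3.35% were called, by DESeq2 11.1% and by limma 12.2% of the genes each tested. Of 15 activators and regulators 12 were tested, 1 was higher (the proprotein convertase gene Pcsk7), 0 were lower and the median log2 fold change was -0.01. At an unadjusted p under 0.05 by edgeR there were 4 (Pcsk7, Serpine2, Plau and Lrp1). DESeq2 called 2 higher (Pcsk7 and Serpine2) and 0 lower, and limma 1 and 0. Serpine2 and Plau had log2 fold changes of 0.51 and 0.46 and Lrp1 of -0.54, each without overlap (edgeR adjusted p = 0.127, 0.173 and 0.206). Pcsk7 had 65.0, 57.2 and 54.7 CPM in knockout replicates 1 to 3 and 28.7, 29.4 and 25.2 CPM in control replicates 1 to 3 (log2 fold change 1.09 ± 0.13, edgeR adjusted p = 0.0164). It shares 108 exonic bases (2.08% of its own) with Tagln on the opposite strand, which had 307383 counts against 3585 and was lower in the knockout. It also shares 415 exonic bases (7.98%) with Rnf214 on the opposite strand, which had 1732 counts and a log2 fold change of -0.49. The Pcsk7 value is less certain for these reasons, and the part of the shared bases in it was not tested. The gene of furin, the convertase best known for activating membrane-type Mmp enzymes, had 121.4 to 126.0 CPM in knockout and 118.5 to 127.2 CPM in control libraries (0.02 ± 0.10). Reck, a membrane-anchored inhibitor of several Mmp enzymes, had 91.9 to 105.5 CPM in knockout and 109.6 to 120.2 CPM in control libraries, without overlap (-0.24 ± 0.11, edgeR adjusted p = 0.241).

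Of 21 genes for other matrix and shedding proteases 18 were tested, 0 were higher, 1 was lower (the serine protease gene Htra3), and the median was 0.17. At an unadjusted p under 0.05 there were 7 of 18, against 22.9% of all tested genes. DESeq2 called 1 higher and 3 lower, and limma 1 and 1, against 11.1% and 12.2% of all genes they tested. Htra3 averaged 127.7 ± 8.33 CPM in knockout and 203.9 ± 30.4 CPM in control libraries (SD, n = 3 each; log2 fold change -0.68 ± 0.14, edgeR adjusted p = 0.0487). Of 20 substrate genes 18 were tested, 1 was higher (the aggrecan gene Acan), 0 were lower, and the median was -0.15. At an unadjusted p under 0.05 there were 7, DESeq2 had 2 higher (Acan and Fn1) and 3 lower calls (Fbn1, Col5a1 and Col3a1), and limma the same without Col3a1. Acan averaged 69.6 ± 10.9 CPM in knockout and 21.7 ± 4.76 CPM in control libraries (1.72 ± 0.19, edgeR adjusted p = 0.0146). Versican (Vcan) had 149.6 to 212.3 CPM in knockout and 114.8 to 138.9 CPM in control libraries and did not pass the test (0.45 ± 0.16, edgeR adjusted p = 0.159). Nearer the threshold were fibrillin-1 (Fbn1), at 245.2 to 280.1 CPM in knockout and 390.1 to 620.1 CPM in control libraries (-0.88 ± 0.19, edgeR adjusted p = 0.0538), and collagen V (Col5a1), at 398.5 to 493.1 CPM in knockout and 662 to 928 CPM in control libraries (-0.75 ± 0.17, edgeR adjusted p = 0.0591). Fibronectin (Fn1) had 4406 to 5855 CPM in knockout and 2472 to 3905 CPM in control libraries (0.76 ± 0.21, edgeR adjusted p = 0.0894). In all 3 the groups did not overlap, as in 31.8% of all tested genes.

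Reads of genes that overlap on the chromosome cannot be divided between them, because the sources used here do not state the strand setting of the counts. Timp4 lies within Syn2 on the opposite strand and shares 90 exonic bases with it (1.53% of its own), and Syn2 had 285 counts against 4173 for Timp4. Timp3 shares 1733 exonic bases (21.3%) with Syn3, which had 698 counts against 92174. Of 10 tested members that share exonic bases with a counted gene, 4 had fewer counts than that gene, among them Adamts7 (with Tbc1d2b), Mmp19 (with Tmem198b) and Mmp24 (with BC029722). The values of all 4 are less certain for that reason.

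**Figure D5:**
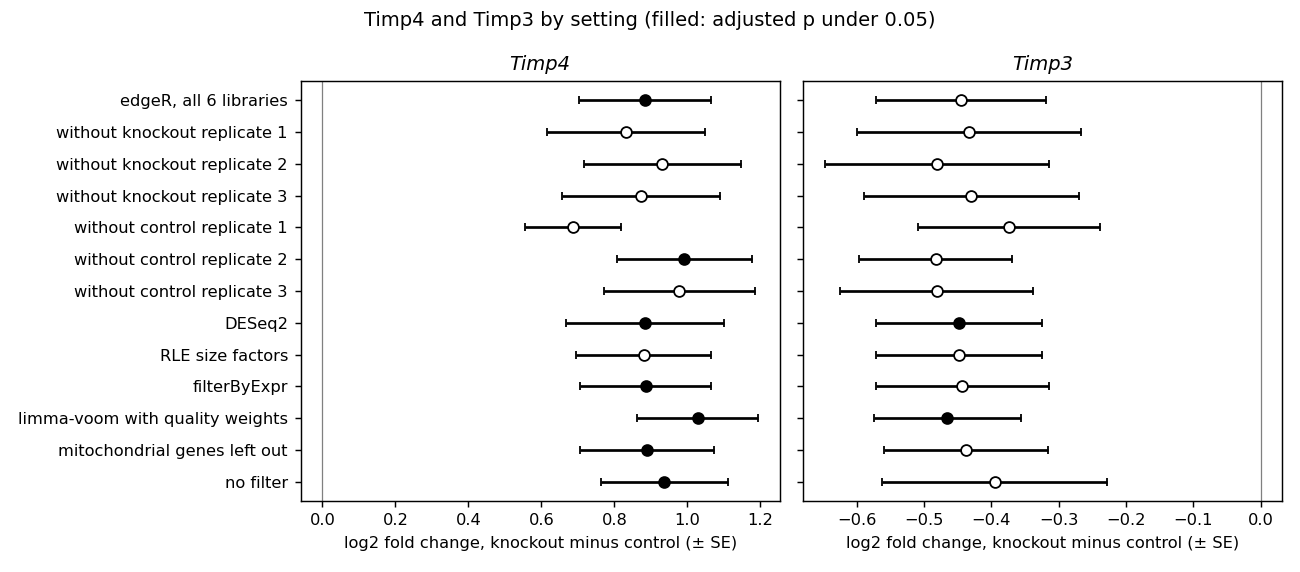
Log2 fold change of Timp4 and Timp3, knockout minus control, with the standard error as bars, in the edgeR test on all 6 libraries, with each library left out, and under other settings; filled points have an adjusted p under 0.05. Timp4 ranges from 0.69 to 1.03 and crosses in and out of the threshold, and Timp3 ranges from -0.48 to -0.40 outside the fit without control replicate 1, where it is -0.37.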

How the data were processed

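Whole-aorta RNA was sequenced in 3 knockout and 3 control libraries, grouped and numbered by the sample titles. The labels do not say that libraries came from separate mice, so p-values measure the spread between these libraries, which may be technical. The tools named in the submitters' processing notes are CASAVA 1.8, HISAT2, SAMtools 1.3.1 and edgeR; counting program, annotation and strand: not given in the sources used here. The authors deposited a whole-number read count and an FPKM value per gene and library, per the file headers, with 0 numeric columns left unmapped. The notes name GRCm39, but 54821 of 55141 gene identifiers shared with GENCODE M21 (99.4%) had identical GRCm38 positions, so positions are given as GRCm38.

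Genes with a summed count of at least 60 over the 6 libraries entered the fit (15977), the members' limit applied to the whole table. Counts were scaled with TMM and compared in R 4.3.3 with edgeR 4.0.16 (glmQLFit, robust, and glmQLFTest), with Benjamini-Hochberg adjustment over all tested genes and a threshold of 0.05. SE were taken as the absolute log2 fold change over the root of the F statistic. CPM are counts over the TMM-scaled library size. FPKM were used to compare genes with each other and within a library, and to recheck the overlap of Adamts5 and Adamts8 between groups. Alternatives were DESeq2 1.42.0, limma 3.58.1 (voom with sample weights), median-of-ratios scaling, filterByExpr, no filter, mitochondrial genes left out, each library left out and a replicate block. The steps were tested on simulated counts. The genes named were Ogt, members past the threshold, 14 members of long-standing vascular interest, the 8 further members with the smallest p and the 8 with the highest FPKM. Other members, and the list genes Furin, Reck, Serpine2, Plau, Lrp1, Vcan, Fbn1, Col5a1, Col3a1 and Fn1, were named after their values were seen. The members, lists and rule were chosen with earlier results of these data known. No 2 libraries of a group matched within counting error (mean chi-square per gene of 15.8 to 153.3). For duplicated symbols (114 in the table) the identifier with the most counts was used. Promoter windows came from RefSeq tables for GRCm38.p6, where 35 of the 50 members were found. Intervals and floors cover counting error only.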

Additional observations from a re-analysis of the deposited data

How the results depend on the processing

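The number of calls over all genes was 535 and rose to 1524 with DESeq2 and 1942 with limma, and it ranged from 7 (without control replicate 1) to 910 (without control replicate 2) when 1 library was left out, with 299 when control replicate 3 was left out and 12, 13 and 30 for knockout replicates 1 to 3. The number of members called higher, 1, was 0 with median-of-ratios scaling and between 0 and 1 with a library left out. The number called lower, 0, was 1 with DESeq2 and 2 with limma. The titles of both groups carry the numbers 1 to 3, but deviations of same-numbered libraries from their group means correlated at 0.0643, 0.0858 and -0.0477, and not every library correlated best with its own number, so the numbers were not taken as pairs; with a replicate block there were 25 calls over all genes and 0 members called higher (Timp4 at 0.90, edgeR adjusted p = 0.113). Of 23 named genes that were tested, 17 kept their direction under every setting that gave a value, which was 13 settings each except for Mmp12, which filterByExpr did not test. The others had log2 fold changes of -0.25 (Mmp9) to 0.14 (Mmp3) in the main fit, each smaller in size than its SE. With limma Mmp2 was at 0.0799 and Adamts1 at 0.0605, and without a filter Mmp2 was at 0.0428. With a library left out Mmp2 ranged from -0.19 to 0.0776, Adamts1 from -0.44 to 0.0832, Mmp3 from -0.0612 to 0.45, Mmp9 from -0.42 to 0.0105, Timp1 from -0.38 to 0.18 and Timp2 from -0.0103 to 0.21. Among genes that kept their sign, Adamts2 ranged from 0.0239 to 0.24, Mmp17 from 0.0390 to 0.17 and Mmp14 from 0.14 to 0.26. Ogt stayed between -1.24 and -1.03 with a library left out, and its edgeR adjusted p was 0.106 when control replicate 1 was left out, 0.0762, 0.13 and 0.0717 for knockout replicates 1 to 3 and 0.0611 with the replicate block. The cause of these differences was not tested. Depth limits Mmp12, Mmp13, Mmp24, Adamts3 and Adamts4 by their low counts, most of all in control replicate 2.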

Other observations

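Proteoglycan-cleaving genes sit side by side at 2 places. Adamts1 and Adamts5 are 53059 bases apart on the minus strand of chromosome 16, and Adamts15 and Adamts8 are 20109 bases apart on chromosome 9 and are read away from each other. In the first pair Adamts5 was below control in every knockout library while Adamts1 overlapped between groups. In the second pair Adamts8 was below control in every knockout library while Adamts15 overlapped. Both separations were in TMM-scaled CPM, where 31.8% of all tested genes did not overlap. In deposited FPKM both genes overlapped through control replicate 2, at 7.72 FPKM for Adamts5 and 11.2 FPKM for Adamts8. The difference between neighbours was not tested.

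The inhibitor genes other than Timp2 lie inside synapsin genes on the opposite strand: Timp1 in Syn1, Timp4 in Syn2 and Timp3 in Syn3. Syn1 had 0.599 to 1.18 CPM in knockout and 1.72 to 2.40 CPM in control libraries, groups that did not overlap, while Timp1 inside it overlapped between groups. Its log2 fold change was -1.25 ± 0.39 with an edgeR adjusted p of 0.118. Syn2 (0.34 ± 0.45) and Syn3 (-0.42 ± 0.22) overlapped between groups.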
